A study of Mus musculus with 12 samples.

Results

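The genes described here are the 10 that encode the subunits of the transcription factor NF-kB and its best known inhibitors: *Nfkb1*, *Nfkb2*, *Rela*, *Relb* and *Rel* on one side, and *Nfkbia*, *Nfkbib*, *Nfkbie*, *Nfkbiz* and *Tnfaip3* on the other. They were found by symbol, and 10 of the 10 had a row among the 13232 genes of the deposited table. The study grew macrophages from the bone marrow of wild-type C57B6/J mice that had eaten either a high-fat diet (HFD) or a normal one (ND). The 2 groups used here are 3 ND libraries and 3 HFD libraries, both from macrophages kept at 1% oxygen for 1 h on day 7 of culture. Cells of both groups had been grown from unsorted marrow with 20 ng/ml of the macrophage growth factor M-CSF, first in medium with 10% serum and from day 4 in serum-free medium. Every library thus had the same low oxygen, and the 6 libraries at normal oxygen were not analysed here, so the values bear on diet and not on the response to hypoxia. The labels do not say whether the libraries of a group came from separate mice or cultures, so p-values measure only the spread between these libraries.

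NF-kB is a dimer of Rel-family proteins that resting macrophages hold in the cytoplasm, bound by inhibitors of the IkB family. When a Toll-like or cytokine receptor is engaged, IkB kinase marks IkB for destruction, the dimer enters the nucleus, and it switches on genes for cytokines, chemokines and survival. Among the genes it switches on are its own inhibitors, so that *Nfkbia* and *Tnfaip3* are textbook feedback genes, and several subunit genes are targets too.

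As NF-kB is known to act on the promoters of these genes, RefSeq promoter windows (build GRCm38.p6, from 250 bases before to 50 bases after an annotated start) were searched for the kB consensus on both strands. The consensus is a 10-base pattern of 3 G, a purine, any base, A or T, a pair of pyrimidines and CC. RefSeq windows matched 7 members, and 5 of these held the pattern: *Nfkb2*, *Rel*, *Nfkbia*, *Nfkbie* and *Tnfaip3*. Counted by window, 7 of the 10 windows of members held it, against 4.51% of the 32851 windows of all genes. *Nfkb2* has 3 of those windows, and its later 2 overlap and share 1 match. No match was found in the windows of *Rela* and *Nfkbib*, nor in another window of *Tnfaip3* that is not shown. This says only that these letters are not in those windows. *Nfkb1*, *Relb* and *Nfkbiz* had no window to search. The 250 bases before the start are shown for the feedback genes *Nfkbia* and *Tnfaip3* and for the subunit genes *Nfkb2* and *Rel*, 5′ to 3′ on the gene's strand, with matches in capitals (overlapping matches run together).
Nfkbia (chr12:55492648-55492897, minus strand): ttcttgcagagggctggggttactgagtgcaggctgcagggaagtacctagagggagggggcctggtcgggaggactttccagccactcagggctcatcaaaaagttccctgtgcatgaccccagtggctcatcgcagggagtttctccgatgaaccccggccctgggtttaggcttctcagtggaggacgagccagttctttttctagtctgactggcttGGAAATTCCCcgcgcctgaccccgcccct
Tnfaip3 (chr10:19015411-19015660, minus strand): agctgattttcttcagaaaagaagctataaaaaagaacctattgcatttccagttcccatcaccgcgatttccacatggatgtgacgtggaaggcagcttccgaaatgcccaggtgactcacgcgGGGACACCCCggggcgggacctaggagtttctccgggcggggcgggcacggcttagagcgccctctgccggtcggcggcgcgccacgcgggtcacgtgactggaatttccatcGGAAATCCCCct
Nfkb2 (chr19:46304487-46304736, plus strand): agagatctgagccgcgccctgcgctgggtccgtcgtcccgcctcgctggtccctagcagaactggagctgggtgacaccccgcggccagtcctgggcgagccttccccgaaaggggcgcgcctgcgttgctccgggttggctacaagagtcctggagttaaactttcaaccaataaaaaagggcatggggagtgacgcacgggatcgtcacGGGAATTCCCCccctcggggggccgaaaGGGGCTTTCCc
Rel (chr11:23770970-23771219, minus strand): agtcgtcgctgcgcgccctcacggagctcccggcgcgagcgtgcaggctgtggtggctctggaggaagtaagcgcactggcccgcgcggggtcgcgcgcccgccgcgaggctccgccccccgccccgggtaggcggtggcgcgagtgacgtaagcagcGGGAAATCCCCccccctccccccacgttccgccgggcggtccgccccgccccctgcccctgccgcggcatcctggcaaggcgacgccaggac
The *Nfkbia* match begins 29 bases before the start, that of *Tnfaip3* nearest the start 12 bases before it, and the outermost match of *Nfkb2* in the window shown 39 bases before it. In *Rel* a pair of overlapping matches begins 92 bases before the start.

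Values are normalized read counts. Reads assigned to the listed genes were estimated at about 19045000 to 24491900 a library. This estimate is the sum of a library's values divided by the inferred value of 1 read. By the median difference between libraries over genes with a mean of at least 100 (log2 scale, without sign), ND replicate 3 was nearer to HFD replicates 1 and 2 (0.103 and 0.101) than to ND replicates 1 and 2 (0.126 and 0.143). HFD replicate 1 was nearer to the 3 ND libraries (0.103 to 0.108) than to HFD replicate 3 (0.133), and HFD replicate 3 was nearer to ND replicate 3 (0.126) than to HFD replicate 1. For all libraries but ND replicate 3 the nearest library was of the same diet: ND replicates 1 and 2 were 0.0911 apart, HFD replicates 1 and 2 were 0.0893 apart, and HFD replicate 3 was 0.105 from HFD replicate 2. Of 10 macrophage markers, among them *Csf1r*, *Adgre1* and *Cd68*, 10 had a row, at 2095 to 267500 in each library, with 5 higher and 5 lower in HFD and 1 at an unadjusted p under 0.05. None of 5 B-cell, 5 erythroid and 5 dendritic-cell markers had a row in the table, while 1 of 5 T-cell markers did (*Cd4*, 201.9 to 355.9 in ND and 98.1 to 230.0 in HFD, log2 fold change -0.70), as did 1 of 4 mast-cell or basophil markers (*Kit*, 116.9 to 225.5 and 72.4 to 104.4, -0.88), both at an unadjusted p under 0.05. Of 10 neutrophil markers 6 had a row, and 6 of these lay higher in HFD (with 0.30 as their median on the log2 scale, 1 at an unadjusted p under 0.05), with a summed level of 1712 to 2455 in ND and 2109 to 3430 in HFD. Of 5 stromal markers 3 had a row and 3 were lower in HFD (median -1.33, 1 at an unadjusted p under 0.05), with sums of 177.5 to 548.6 in ND and 51.8 to 336.8 in HFD. Any part of these cells in the values below was not tested, and in bulk RNA fewer cells of a type and less RNA per cell cannot be told apart.

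The comparison of diets asked whether macrophages from mice on a high-fat diet carry other levels of the NF-kB machinery after 1 h of hypoxia. None of the 10 members passed the test, and their differences were small: log2 fold changes of HFD over ND ran from -0.12 (*Nfkbia*) to 0.15 (*Nfkbiz*), with 5 higher and 5 lower and a median of 0.015. Over all genes the median was -0.0034. The median size of the change without its sign was 0.074 for the members and 0.092 for all genes. At an adjusted p of 0.05 (limma, Benjamini-Hochberg over 13232 genes) 0 members were called, as were 0% of all genes. At an unadjusted p of 0.05 the only member was *Tnfaip3*, 1 of 10, where 10.6% of all genes were. That count was 0 to 2 without 1 library, where 700 to 2309 of all genes were at that threshold. It was 3 with array weights (*Rel*, *Nfkbia* and *Tnfaip3*), under which 3646 of all genes were. The median took a negative sign without ND replicate 1 (-0.013), ND replicate 3 (-0.00042), HFD replicate 1 (-0.077) or HFD replicate 2 (-0.015). It was 0.058 without HFD replicate 3, 0.044 with array weights and 0.0027 with scaling to column totals.

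**Figure D1:**
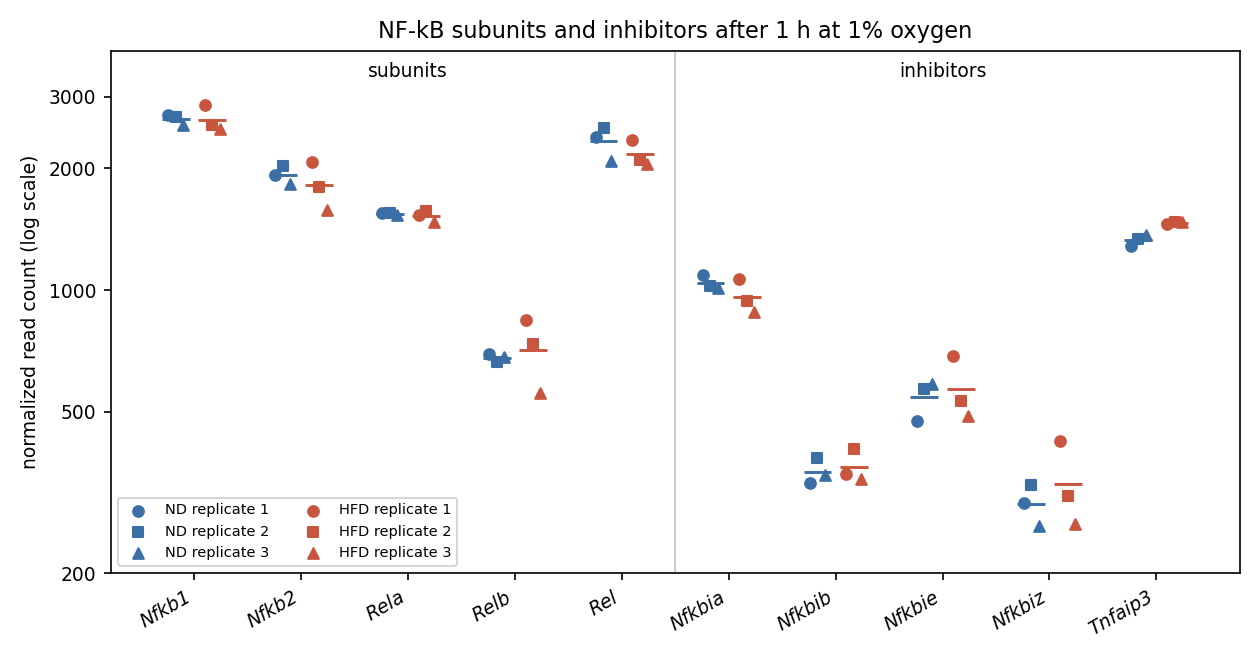
Normalized read count (log axis) of each member in the 3 ND (blue) and 3 HFD (red) libraries, with marker shape for the replicate and a bar at each diet's mean. The diets overlap for 9 of the 10 genes, and for *Tnfaip3* the 3 HFD values (1456 to 1474) lie above the 3 ND values (1285 to 1371).

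Among the subunits, *Rela* encodes p65, the partner with the transactivation domain in the commonest dimer. It stood at 1551, 1549 and 1532 in ND replicates 1 to 3 and at 1530, 1566 and 1469 in HFD replicates 1 to 3. The groups overlapped, and *Rela* was the steadiest subunit: its SD of log2 values within a diet was 0.034, below that of all but 4.52% of the 2166 genes of like level (within a factor of 1.5). Its log2 fold change was -0.021 (SE 0.059, limma adjusted p 0.929), and the 95% interval of the fold ran from 0.899 to 1.08. *Nfkb1*, which encodes p105, the precursor of p50, had 2703, 2669 and 2560 in ND and 2860, 2552 and 2498 in HFD. Its highest and its lowest value were both HFD libraries, so that the ND values lay inside the HFD range, and its log2 fold change was -0.0062 (SE 0.068, limma adjusted p 0.983). *Rel* encodes c-Rel, a subunit prominent in immune cells. Its values were 2393, 2518 and 2084 in ND and 2348, 2094 and 2045 in HFD, with a log2 fold change of -0.11 (SE 0.085, limma adjusted p 0.706). ND replicate 3 was the low library of its diet for *Rel*, within the range of HFD. Without it the log2 fold change of *Rel* was -0.19 (limma adjusted p 0.248, unadjusted 0.0355), and it was -0.17 without HFD replicate 1, -0.068 without HFD replicate 3 and, with ND replicate 2 left out, -0.049. Over all alternatives its adjusted p ran from 0.138 to 0.974.

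In the alternative pathway the p100 precursor is trimmed to p52 and pairs with RelB. On the log2 scale the genes of this pathway showed the widest HFD values among the subunits. *Nfkb2*, the p100 gene, had 1922, 2020 and 1826 in ND and 2070, 1799 and 1577 in HFD. Its log2 fold change was -0.091 (SE 0.095, limma adjusted p 0.785). *Relb* had 693.5, 664.9 and 683.7 in ND and 842.8, 735.3 and 557.6 in HFD, for a log2 fold change of 0.044 (SE 0.13, limma adjusted p 0.932). The SD of *Relb* was 14.5 in ND and 144 in HFD, and the HFD libraries lay on both sides of the ND libraries. Exons of *Nfkb2* share 531 bases (11.6%) with the annotated gene *AC114539.1* and 299 (6.52%) with *Psd*, both on the other strand, and whether the authors' counting used strand is not given in the sources used here. Over the 5 subunits the 95% intervals of the fold spanned 0.81 (*Nfkb2*) to 1.26 (*Relb*) at their outermost. Directions of 4 subunits turned with 1 library left out. Without HFD replicate 3 the log2 fold changes were 0.031 for *Nfkb1*, 0.0062 for *Nfkb2* and 0.0041 for *Rela*. *Nfkb1* was also at 0.0098 without ND replicate 1, 0.00083 without ND replicate 2 and 0.016 without HFD replicate 2. *Relb* was at -0.088 without HFD replicate 1 and 0.21 without HFD replicate 3 (unadjusted p 0.0367, limma adjusted p 0.511). *Nfkb2* was at -0.19 without HFD replicate 1 and -0.055 without ND replicate 2.

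**Figure D2:**
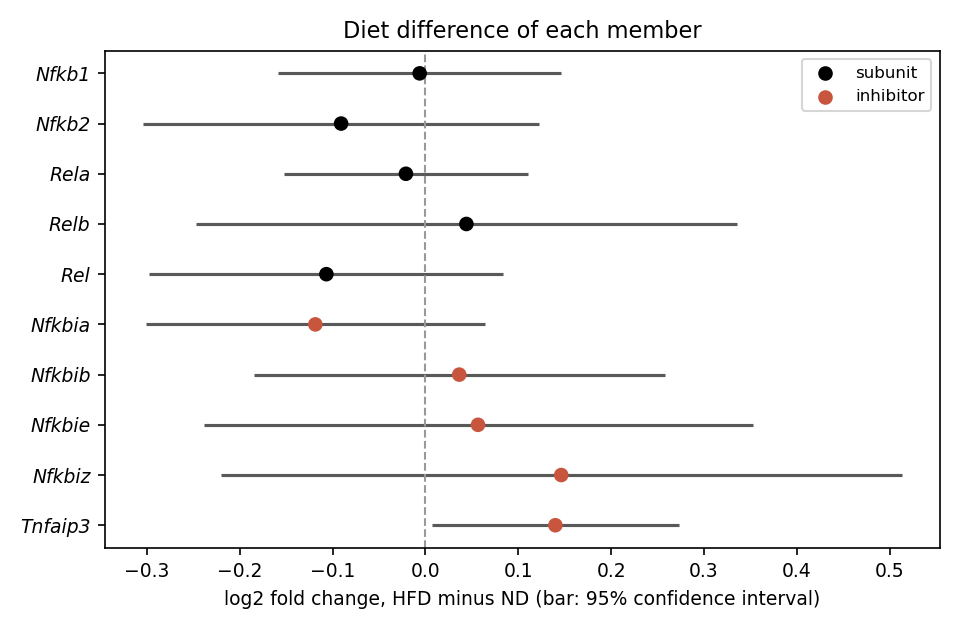
Log2 fold change (HFD minus ND, x axis) of each member (y axis) with limma's 95% confidence interval, for subunits in black and inhibitors in red. The intervals of 9 members cross 0, and that of *Tnfaip3* runs from 0.0068 to 0.27.

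The classical inhibitors hold the dimer in the cytoplasm. *Nfkbia* encodes IkB-alpha, the fast feedback inhibitor, and its values were 1088, 1024 and 1010 in ND and 1063, 938.0 and 880.8 in HFD. HFD replicates 2 and 3 were its lowest libraries, while HFD replicate 1 lay among the ND values. It had the lowest log2 fold change of the members, -0.12 (SE 0.081, limma adjusted p 0.658), with a 95% interval of the fold from 0.812 to 1.04. It was -0.19 without HFD replicate 1 (limma adjusted p 0.355, unadjusted 0.0364) and -0.058 without HFD replicate 3, and its adjusted p ran from 0.157 to 0.974 over the alternatives. *Nfkbib* encodes IkB-beta, and its values were 333.9, 384.3 and 350.4 in ND and 350.5, 405.3 and 341.4 in HFD. *Nfkbie* encodes IkB-epsilon, and it stood at 475.0, 571.0 and 586.9 in ND and at 688.2, 531.7 and 489.5 in HFD. The groups overlapped for both genes. Their log2 fold changes were 0.036 (SE 0.099) and 0.057 (SE 0.13), with limma adjusted p-values of 0.927 and 0.912. For *Nfkbib*, 314 exon bases (14.5%) are shared with *Ccer2* and 42 (1.94%) with *Sirt2*, both on the other strand. Leaving out ND replicate 1 turned *Nfkbib* to -0.0089 and *Nfkbie* to -0.038. *Nfkbib* was at -0.040 when HFD replicate 2 was left out, and *Nfkbie* at -0.087 when HFD replicate 1 was. *Nfkbib* was at 0.092 without ND replicate 2 and 0.15 with array weights. *Nfkbie* was at 0.16 without HFD replicate 3 and 0.11 when ND replicate 3 was left out.

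*Nfkbiz* encodes IkB-zeta, an atypical nuclear member that acts as a cofactor of NF-kB at secondary response genes. It was the member with the fewest reads, about 221 in its lowest library, where counting error alone is 6.73% of the value. Its values were 298.3, 329.5 and 261.0 in ND and 423.9, 310.7 and 264.2 in HFD. HFD replicate 1 stood above the other 5 libraries, which lay between 261.0 and 329.5. The log2 fold change of 0.15 (SE 0.16, limma adjusted p 0.802) was the highest of the members and turned to -0.042 without HFD replicate 1 and was 0.30 without HFD replicate 3 and 0.058 when ND replicate 3 was left out. Its SD within a diet, 0.27 on the log2 scale, was above that of 94.1% of 2442 genes of like level, and its 95% interval of the fold, 0.858 to 1.43, was the widest of the members.

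*Tnfaip3* encodes A20, the ubiquitin-editing enzyme that shuts off signalling upstream of IkB kinase. It was the only member whose diets did not overlap: 1285, 1337 and 1371 in ND and 1456, 1469 and 1474 in HFD. All 3 HFD libraries were above all 3 ND libraries, as for 7.44% of all genes, and the diets did not overlap in either direction for 14.5% of all genes. The ND mean was 1331 ± 43.2 and the HFD mean 1466 ± 9.39 (SD over 3 libraries per diet). This is a fold of 1.10 with a 95% interval from 1.005 to 1.21, or a log2 fold change of 0.14 (SE 0.059). The limma adjusted p was 0.447 and the unadjusted p 0.0413, the 1221st smallest of 13232, and 5.40% of all genes were higher in HFD at an unadjusted p under 0.05. The difference therefore did not pass the test. The SD of the 3 HFD values was 0.64% of their mean. Counting error was 2.93% of the value in the library with the fewest *Tnfaip3* reads, which was ND replicate 3 and not an HFD library. The direction was the same in every alternative run, with log2 fold changes from 0.11 to 0.16. The unadjusted p was between 0.0725 and 0.143 without ND replicate 1, ND replicate 2 or any HFD library, and 0.0279 without ND replicate 3. It was 0.06 with scaling to column totals, 0.0657 without the trend and 0.0658 with the replicate block. The limma adjusted p was 0.068 with array weights, and ran from 0.068 to 0.956 over the alternatives.

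For most members the HFD libraries lay further apart than the ND libraries. The SD of log2 values was larger in HFD than in ND for 8 of the 10 members, against 46.4% of all genes, with *Rel* and *Tnfaip3* as the exceptions. The median SD of the members was 0.065 in ND and 0.14 in HFD, while for all genes it was 0.12 and 0.11. HFD replicate 1 was the highest of the 6 libraries for 5 members (*Nfkb1*, *Nfkb2*, *Relb*, *Nfkbie* and *Nfkbiz*), against 11.8% of all genes. HFD replicate 3 was the lowest for 6 members, which include the 5 subunits and *Nfkbia*, against 20.9% of all genes. HFD replicate 1 was above HFD replicate 3 for 9 of 10 members, by a median of 0.24 on the log2 scale, and *Tnfaip3* was the exception. Over all genes that share was 49.5%, with a median difference of -0.0028. These counts were made after the values were seen, the members share their libraries, and no test was made of them.

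**Figure D3:**
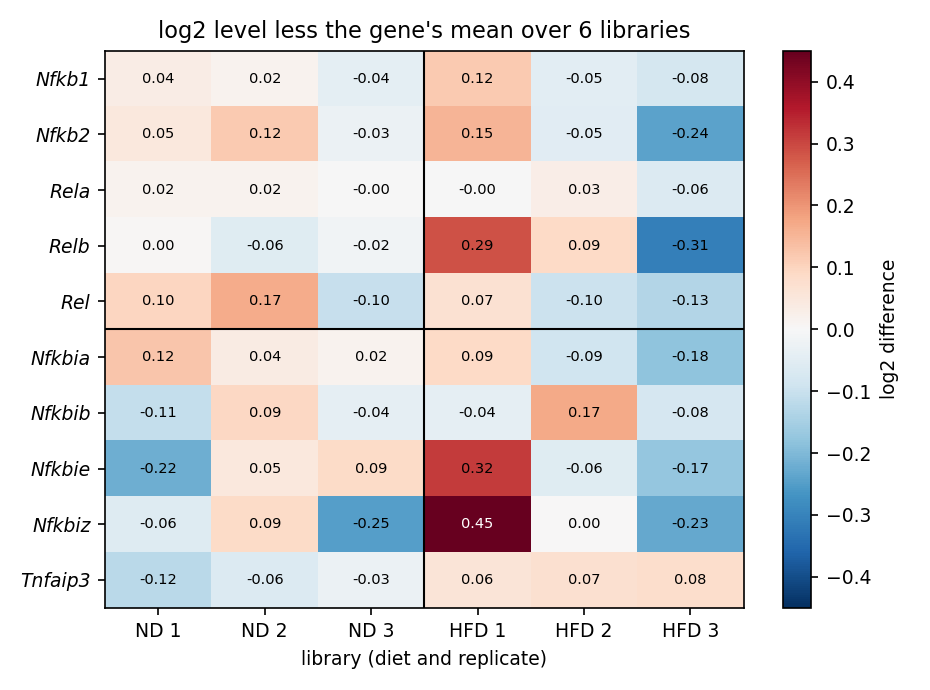
Log2 level of each member (rows) in each library (columns) less the gene's mean over the 6 libraries, as colour and number. HFD 1 is the highest library for 5 members and HFD 3 the lowest for 6, and the row of *Tnfaip3* alone changes from negative in every ND library to positive in every HFD library.

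Levels can be compared between genes only per length. Per kilobase of merged exons (GENCODE M21), the mean normalized read count over the 6 libraries was highest for *Nfkbia* at 621 and *Rela* at 499, above 87.6% and 84.3% of genes. *Nfkb2* followed at 408, *Rel* at 301 and *Nfkb1* at 219. *Tnfaip3* (194), *Nfkbie* (183), *Relb* (179) and *Nfkbib* (166) came next, and the ranges over libraries of these 4 neighbours overlapped. *Nfkbiz* was lowest per kilobase at 62.7, above 31.4% of genes. The place of *Nfkb1* depends on the length used: with the longest annotated transcript in place of the merged exons, a choice made after seeing the data, it stood at 636 per kilobase, beside 634 for *Nfkbia* and 564 for *Rela*. *Nfkbiz* stayed lowest, at 76.5.

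The rest of the pathway was described through lists of other genes. Of 22 kinases and adaptors upstream of IkB, 22 had a row, 7 higher and 15 lower in HFD; the list's median was -0.026 on the log2 scale. None passed at an adjusted p of 0.05, and 1 was higher and 0 lower at an unadjusted p under 0.05, where 5.40% and 5.18% of all genes were. That gene was *Ikbkg*, which encodes NEMO, the regulatory subunit of IkB kinase. It had 1763, 2003 and 2430 in ND and 2505, 2709 and 2764 in HFD. The diets did not overlap, as for 7.44% of all genes with HFD above ND, and ND replicate 3 was nearest to HFD. *Ikbkg* had a log2 fold change of 0.38 (SE 0.11, limma adjusted p 0.286). It passed without ND replicate 3 (0.50, limma adjusted p 0.0196) and with array weights (0.49, 0.00971), as did 233 and 1133 of all genes. Its adjusted p ran from 0.00971 to 0.882 over the alternatives. *Ikbkg* shares 418 exon bases (5.15%) with *G6pdx* on the other strand, whose log2 fold change was 0.036. The kinase subunits *Chuk* and *Ikbkb*, IKK-alpha and IKK-beta, were at 0.11 and -0.00035 (limma adjusted p 0.663 and 0.999). *Chuk* was at 0.049 without HFD replicate 1, 0.068 without ND replicate 2 and 0.17 without HFD replicate 3, and *Ikbkb* stayed between -0.016 and 0.017 without 1 library. *Traf5*, a receptor adaptor, was at 0.17, *Map3k14*, the NIK kinase of the alternative pathway, at -0.14 and *Map3k7*, the TAK1 kinase, at -0.054, with limma adjusted p-values of 0.551, 0.717 and 0.800. *Map3k14* was at -0.28 without HFD replicate 1 (limma adjusted p 0.291, over a range from 0.247 to 0.974) and -0.017 without HFD replicate 3, and *Map3k7* at -0.083 without ND replicate 3 and, with ND replicate 1 left out, -0.035. The list's median turned to 0.010 without ND replicate 1, 0.0060 without ND replicate 2 and 0.0032 without HFD replicate 3. The count at an unadjusted p under 0.05 was 3 without ND replicate 3, where 2309 of all genes were. It was 2 without HFD replicate 1 or with array weights, where 1670 and 3646 of all genes were, against 1401 in the main fit.

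Of 19 other inhibitors and ubiquitin editors, 19 had a row, 9 higher and 10 lower, with a median log2 fold change of -0.018 that turned to 0.026 without HFD replicate 3 and 0.019 without ND replicate 1. None passed at an adjusted p of 0.05 in limma, and at an unadjusted p under 0.05 there were 3 higher and 1 lower, where 5.40% and 5.18% of all genes were. That count of 4 was 0 when ND replicate 1 or 2 was left out or no trend was fitted. All genes then went from 1401 to 700, 1060 and 1257. The count was 1 when HFD replicate 2 or 3 was left out (726 and 1213 of all genes). It was 2 with scaling to column totals (1390 of all genes) and 6 with array weights (3646 of all genes). *Nfkbid*, the nuclear inhibitor IkB-NS, had 258.4, 295.3 and 360.2 in ND and 344.6, 381.2 and 376.8 in HFD (log2 fold change 0.28, limma adjusted p 0.454). *Tnip3*, an A20-binding protein, had 2299, 2463 and 2858 in ND and 2971, 2632 and 3478 in HFD (0.25, 0.464). *Cyld*, a deubiquitinase that opposes IkB kinase activation, had 2011, 2121 and 1842 in ND and 1881, 1676 and 1720 in HFD (-0.18, 0.437). The diets overlapped for all 3 genes. *Zc3h12a*, the RNase regnase-1, was the remaining one (0.22, 0.466), named after its values were seen, and *Otulin*, which removes linear ubiquitin chains, was at -0.15 (0.582). Leaving out HFD replicate 3 took *Tnip3* to 0.14 and *Otulin* to -0.084, and leaving out ND replicate 1 took *Nfkbid* to 0.17 and *Zc3h12a* to 0.15. *Zc3h12a* was at 0.14 without HFD replicate 1. With array weights *Nfkbid* (0.41, limma adjusted p 0.0321) and *Cyld* (-0.23, 0.041) passed, as did 1133 of all genes. Over their alternatives the adjusted p-values ran from 0.0321 to 0.956 and from 0.041 to 0.945.

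Of 33 textbook NF-kB targets in macrophages, 26 had a row in the table. *Il1a*, *Il6*, *Il12b*, *Cxcl1*, *Ccl5*, *Ptgs2* and *Nos2* had none. There were 10 higher and 16 lower; log2 fold changes had a median of -0.053 and lay between -0.77 and 0.43. None passed at an adjusted p of 0.05 in limma. At an unadjusted p under 0.05, 3 were higher and 4 lower, where 5.40% and 5.18% of all genes were, and 2 of the 3 higher, *Tnip3* and *Zc3h12a*, also stand in the list of inhibitors. That count of 7 rose to 11 when ND replicate 3 was left out and to 14 with array weights. Over all genes the count rose from 1401 to 2309 and to 3646 in those settings. The count of targets was 4 when ND replicate 1 or HFD replicate 2 was left out or no trend was fitted. Over all genes it was then 700, 726 and 1257. With the replicate block 10 targets and 1506 of all genes were at that threshold. The chemokine genes *Ccl4* (-0.77, SE 0.14) and *Ccl3* (-0.55, SE 0.11) had the smallest p, with limma adjusted p-values of 0.145 and 0.184. *Ccl4* stood at 426.1, 374.5 and 362.5 in ND and at 233.0, 185.3 and 268.8 in HFD. The diets did not overlap for either chemokine or for *Gadd45b*, all 3 lower in HFD, and no target was higher without overlap. Over all genes the diets did not overlap for 14.5%. Both chemokines passed without ND replicate 3, as did 233 of all genes (*Ccl4* -0.82 and *Ccl3* -0.64, limma adjusted p 0.0369 and 0.0206). They also passed with array weights, as did 1133 of all genes (-0.99 and -0.69, both at a limma adjusted p of 0.00461). Their adjusted p ran from 0.00461 to 0.75 and to 0.86. *Sod2*, mitochondrial superoxide dismutase, was at 0.19 (limma adjusted p 0.465) and passed with array weights (0.28, 0.0364, over a range from 0.0364 to 0.956). The list's median was -0.19 without HFD replicate 1, -0.12 without ND replicate 3 and -0.028 without HFD replicate 3, and -0.12 when genes with a mean below 100 were dropped.

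**Figure D4:**
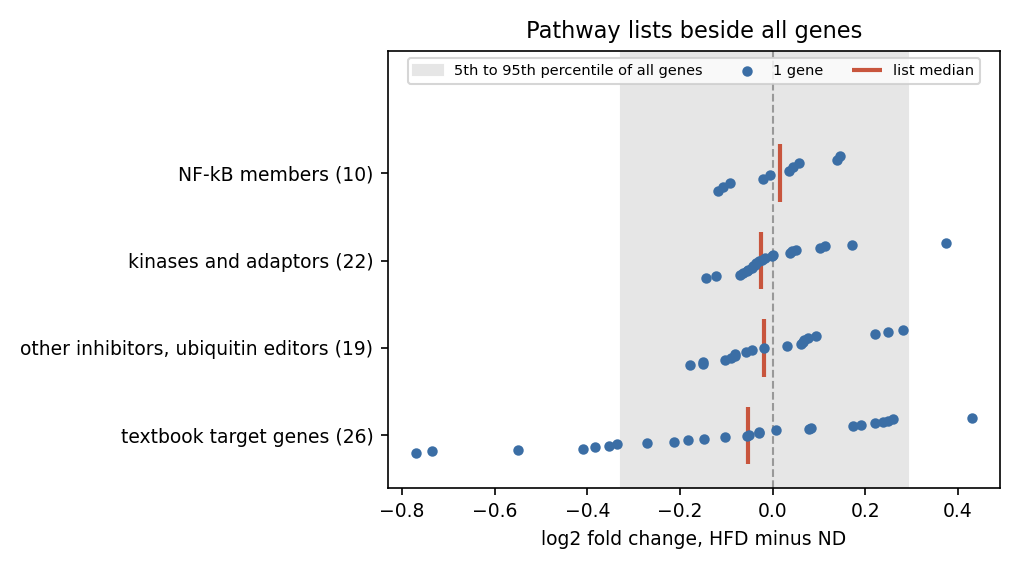
Log2 fold change (HFD minus ND, x axis) of each gene in the NF-kB members and in the 3 pathway lists (rows, with the number of genes), a red bar at each list's median and the 5th to 95th percentile of all genes in grey. The members and most kinases lie inside the grey band (-0.33 to 0.29), and the target genes reach down to -0.77.

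Among 10784 other genes with a mean of at least 100, those whose pattern over the 6 libraries was most like that of *Tnfaip3* were *Cops8*, a subunit of the COP9 signalosome, then *Ociad1* and *Glg1*. The root mean square difference of their centred log2 values from those of *Tnfaip3* was 0.0047, 0.013 and 0.017, against a median of 0.13 over those genes. *Cops8* had 628.6, 653.2 and 666.0 in ND and 714.6, 719.9 and 720.1 in HFD. Its log2 fold change was 0.15 (limma adjusted p 0.484), and *Ociad1* and *Glg1* were at 0.15 and 0.13 (0.421 and 0.465). These genes were picked for likeness over the same 6 libraries, so fold changes near that of *Tnfaip3* follow from the choice.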

How the data were processed

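Per the labels' protocols, stranded total-RNA libraries were made from 100 ng of RNA after ribosomal RNA removal and sequenced as single reads of 75 bases. STAR, Partek and the mm10 build are named in the submitters' processing notes. The deposited values are a signal: read counts per gene, scaled per library by the authors. In each library 56.7% to 57.7% of values under 300 were whole multiples (within 0.02) of 1 step, taken as the value of 1 read, against about 3.92% to 3.95% at other steps. The rest were fractions, so counts of whole reads could not be had and count models were not used. The NC columns were read as ND, since the labels name no other diet beside HFD.

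Log2(value + 1) was fitted over all 13232 genes with limma 3.58.1 in R 4.3.3 (mean-variance trend, two-sided, Benjamini-Hochberg) and checked on simulated data. Fold changes are on this scale, which understates changes of low genes. Counting error covers counting only: without molecular identifiers, PCR copies are counted as separate reads. The members, and the lists of pathway and marker genes, were chosen with earlier results of these data known. In each list the 2 genes with the smallest p per direction were named, and others (*Chuk*, *Ikbkb*) after their values were seen. Likeness was the root mean square difference of centred log2 values from the member with the smallest p. Pairing by replicate number was checked: deviations from the diet means correlated across genes at 0.089, -0.11 and 0.027, which does not show pairing. Merged exon lengths matched 12964 symbols (98.0%).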

Additional observations from a re-analysis of the deposited data

How the results depend on the processing

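Of 80 values of the members under alternatives that keep all 6 libraries (pseudocounts of 0.1 and 10, a minimum mean of 100, quantile normalization, column totals, no trend, array weights and the replicate block), 80 kept their direction and their side of an adjusted p of 0.05. Their sizes moved by over 1.5 times with array weights for *Nfkb1* (-0.042), *Rela* (-0.00020), *Relb* (0.088), *Rel* (-0.16), *Nfkbib* (0.15), *Nfkbie* (0.099) and *Nfkbiz* (0.095), and with column totals for *Nfkb1* (-0.019), *Rela* (-0.033) and *Nfkbib* (0.024). Without 1 library, 48 of 60 did and 12 reversed, and 0 came to pass. Without 1 library log2 fold changes ran from -0.066 to 0.031 for *Nfkb1*, -0.19 to 0.0062 for *Nfkb2*, -0.042 to 0.0041 for *Rela*, -0.088 to 0.21 for *Relb*, -0.19 to -0.049 for *Rel*, -0.19 to -0.058 for *Nfkbia*, -0.040 to 0.092 for *Nfkbib*, -0.087 to 0.16 for *Nfkbie* and -0.042 to 0.30 for *Nfkbiz*. The count of all genes at an adjusted p under 0.05 was 0 (1401 unadjusted), 1133 with array weights and 31 with the replicate block, and ran from 0 to 233 without 1 library. The 233 were without ND replicate 3. Array weights were largest for HFD replicate 2 (3.09) and ND replicate 1 (1.91), and ran from 0.441 (ND replicate 3) to 0.891 (ND replicate 2) in the others. The median of the other inhibitors ran from -0.033 to 0.026 and that of the targets from -0.19 to -0.028 without 1 library. *Ikbkb* ran from -0.016 to 0.017 without 1 library, turning to 0.014 without ND replicate 1 and 0.017 without HFD replicate 3. The cause of these changes was not tested. The replicate block called no member (smallest limma adjusted p 0.486). With 3 libraries a diet, the members' 95% intervals do not exclude folds as large as 1.43 (*Nfkbiz*).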

Other observations

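Ratios between members were formed within each library from the normalized read counts, not per length, and the pair named first was chosen after its values were seen. *Tnfaip3* over *Nfkbia*, the 2 feedback genes whose promoters are shown, was 1.18, 1.31 and 1.36 in ND and 1.37, 1.57 and 1.67 in HFD. The lowest HFD ratio was just above the highest ND ratio. *Nfkbia* over *Rela* was 0.701, 0.661 and 0.659 in ND and 0.695, 0.599 and 0.60 in HFD, with HFD replicate 1 among the ND values. *Relb* over *Nfkb2*, the partners of the alternative pathway, was 0.355 ± 0.0232 in ND and 0.390 ± 0.0314 in HFD, and *Nfkb2* over *Nfkb1* was 0.727 ± 0.0258 and 0.687 ± 0.0489 (SD, n = 3 libraries each), with overlapping libraries in both. No test was made of these ratios.

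The order of HFD replicates 1 and 3 was also read in the other lists. HFD replicate 1 was above HFD replicate 3 for 14 of 22 kinases and adaptors, 13 of 19 other inhibitors and 18 of 26 target genes, by a median log2 difference of 0.011, 0.077 and 0.23. The share over all genes was 49.5%.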
